A study of Mus musculus with 9 samples.

Results

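Complement expression was examined in whole osteosarcoma (OS) tumors from 2 genetically engineered mouse models, through 8 genes found by their symbol among the 55367 genes of the deposited count table. They encode the 3 chains of C1q (C1qa, C1qb and C1qc), the components C2, C4b and C3, and the anaphylatoxin receptors C3ar1 and C5ar1. The p53-driven group held 4 tumors of the genotype Col2.3-Cre/TrpP53fl/+, in which an osteoblast-specific promoter drives Cre and 1 Trp53 allele is floxed. The Myc-knockin group held 5 tumors carrying p53fl/+ and the (LSL)-c-MycT58A allele, in which the same Cre also switches on a Myc whose protein lacks a phosphorylation site used for its turnover. Both groups therefore shared the Cre driver and the floxed Trp53 allele, and the promoter limits both models to alleles changed in the osteoblast lineage. No untreated tissue or normal bone was among the samples, and neither the age at collection nor a separate mouse for each tumor is given in the labels, so p values measure the spread between these tumors.

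Complement is a cascade of blood and tissue proteins that tags cells and particles for removal. In the classical pathway, C1q binds antibody or a damaged surface, and its partner proteases C1r and C1s then cleave C4 and C2 into the enzyme that splits C3. C3b marks the surface for phagocytes, while the small fragments C3a and C5a call in myeloid cells through C3ar1 and C5ar1. C1q is known to be made largely by tissue macrophages, whereas most circulating C3 comes from the liver. The study asked how Myc changes the immune cells of the tumor, and the comparison below asks whether complement RNA differed between the 2 genotypes.

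The libraries were unequal, and this touches every value. Total counts ranged from 2716322 to 17073285 per tumor, which sets the floor of 3 counts at between 0.114 and 2.39 CPM, the depth-normalized count unit, here with TMM-normalized library sizes. Reads on 11 satellite-repeat genes took 23.2% to 81.0% of the counts in F187, M351, M408 and M9 and at most 0.0242% in the other 5 tumors. Counts expected from genomic background, estimated on chemosensory receptor genes that tumors are not known to express, made up 24.1% of the remaining counts in M9, 16.8% in M351 and 5.49% in F187. M624 and M664 stood apart in another way, with 5.33 and 9.32 CPM of the small nuclear RNA Rn7sk against at least 8858 CPM in every other tumor, and with 216 and 783 CPM of 5 summed red cell markers against 3.56 to 26.7 CPM. Myc itself was at 43.5 to 67.1 CPM in the p53-driven and 144.2 to 1045 CPM in the Myc-knockin tumors. It thus followed the assigned groups in all 9, of which M351, M9 and M664 were assigned from the letter M alone. Osteoblast markers summed to 61910 to 140400 CPM in the p53-driven and 3404 to 40170 CPM in the Myc-knockin tumors, where Bglap and Bglap2 were at 0 in M408 and Bglap2 in M624.

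The C1q genes lie side by side on the minus strand of chromosome 4 (mm10), C1qb at 136880129 to 136886187, C1qc at 136889804 to 136893065 and C1qa at 136895917 to 136898803. C4b (34728380 to 34743882), C2 (34862604 to 34898265) and C3 (57203970 to 57228136) are on the minus strand of chromosome 17. C3ar1 is on chromosome 6 (122847138 to 122856161) and C5ar1 on chromosome 7 (16246743 to 16259540), both also on the minus strand. Promoters of 5 of the 8 members were in the RefSeq table (GRCm38.p6), each reaching from 250 bases before the annotated start to 50 after it. The promoters of C1qb and C1qc are shown because the levels of these adjacent genes varied together across the tumors, and that of C3 because it did not follow them. Capitals mark GAGGAA or its reverse complement, a longer form of the core GGAA bound by ETS factors such as PU.1, the main transcription factor of macrophages. The shorter GGAA was not marked, and it also occurs elsewhere in the sequences below, that of C3 included.
C1qb, chr4:136886151-136886450, minus strand: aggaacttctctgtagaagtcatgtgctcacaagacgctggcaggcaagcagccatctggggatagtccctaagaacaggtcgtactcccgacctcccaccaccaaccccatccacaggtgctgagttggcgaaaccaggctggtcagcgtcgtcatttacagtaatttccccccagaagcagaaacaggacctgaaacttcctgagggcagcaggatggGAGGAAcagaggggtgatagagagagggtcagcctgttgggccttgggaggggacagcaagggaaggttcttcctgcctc
C1qc, chr4:136892865-136893164, minus strand: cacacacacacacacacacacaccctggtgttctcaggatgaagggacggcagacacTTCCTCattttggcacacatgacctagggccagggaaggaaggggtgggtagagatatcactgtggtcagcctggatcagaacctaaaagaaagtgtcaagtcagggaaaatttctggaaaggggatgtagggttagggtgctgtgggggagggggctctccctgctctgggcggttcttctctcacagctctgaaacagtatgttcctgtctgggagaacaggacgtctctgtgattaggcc
C3, chr17:57228087-57228386, minus strand: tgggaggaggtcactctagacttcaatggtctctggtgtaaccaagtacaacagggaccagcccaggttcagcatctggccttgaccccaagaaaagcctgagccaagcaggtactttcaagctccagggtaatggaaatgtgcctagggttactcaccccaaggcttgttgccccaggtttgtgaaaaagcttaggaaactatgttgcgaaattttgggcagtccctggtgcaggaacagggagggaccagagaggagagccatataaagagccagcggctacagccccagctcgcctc
Both strands were searched for 4 motifs, and no match overlapped another. GAGGAA stood at bases -30 to -25 of C1qb on the gene's strand and at -193 to -188 of C1qc on the opposite strand, and none was found in C3. Of all 32851 promoters of this length, 28.3% hold GAGGAA, so a match is common. The AP-1 motif TGACTCA, present in 5.2% of promoters, was found in C3ar1 alone at bases -22 to -16. The E-box CACGTG, a motif that MYC and MAX bind (7.15% of promoters), and the CEBP palindrome TTGCGCAA (0.183%) were found in none of the 5.

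No complement member differed between Myc-knockin and p53-driven tumors beyond the spread between tumors. Of the 8 members, 7 passed the filter on low counts and none was called by edgeR's quasi-likelihood test (more than a 1.5-fold change with an adjusted p under 0.05), where 5.27% of all 15365 tested genes were called. None of the 7 had an unadjusted p under 0.05 in edgeR, none was called by DESeq2 (1 with an unadjusted p under 0.05, and no adjusted p given for C4b) and none by limma-voom (0 with an unadjusted p under 0.05). The groups overlapped for all 8 members, while 13.0% of tested genes had groups that did not overlap. The fitted log2 fold changes, Myc-knockin minus p53-driven, were above 0 for 3 members and below 0 for 4, with a median of -0.045 beside 0.144 over all tested genes. In whole tumors, fewer cells of a type and less RNA per cell cannot be told apart.

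**Figure D1:**
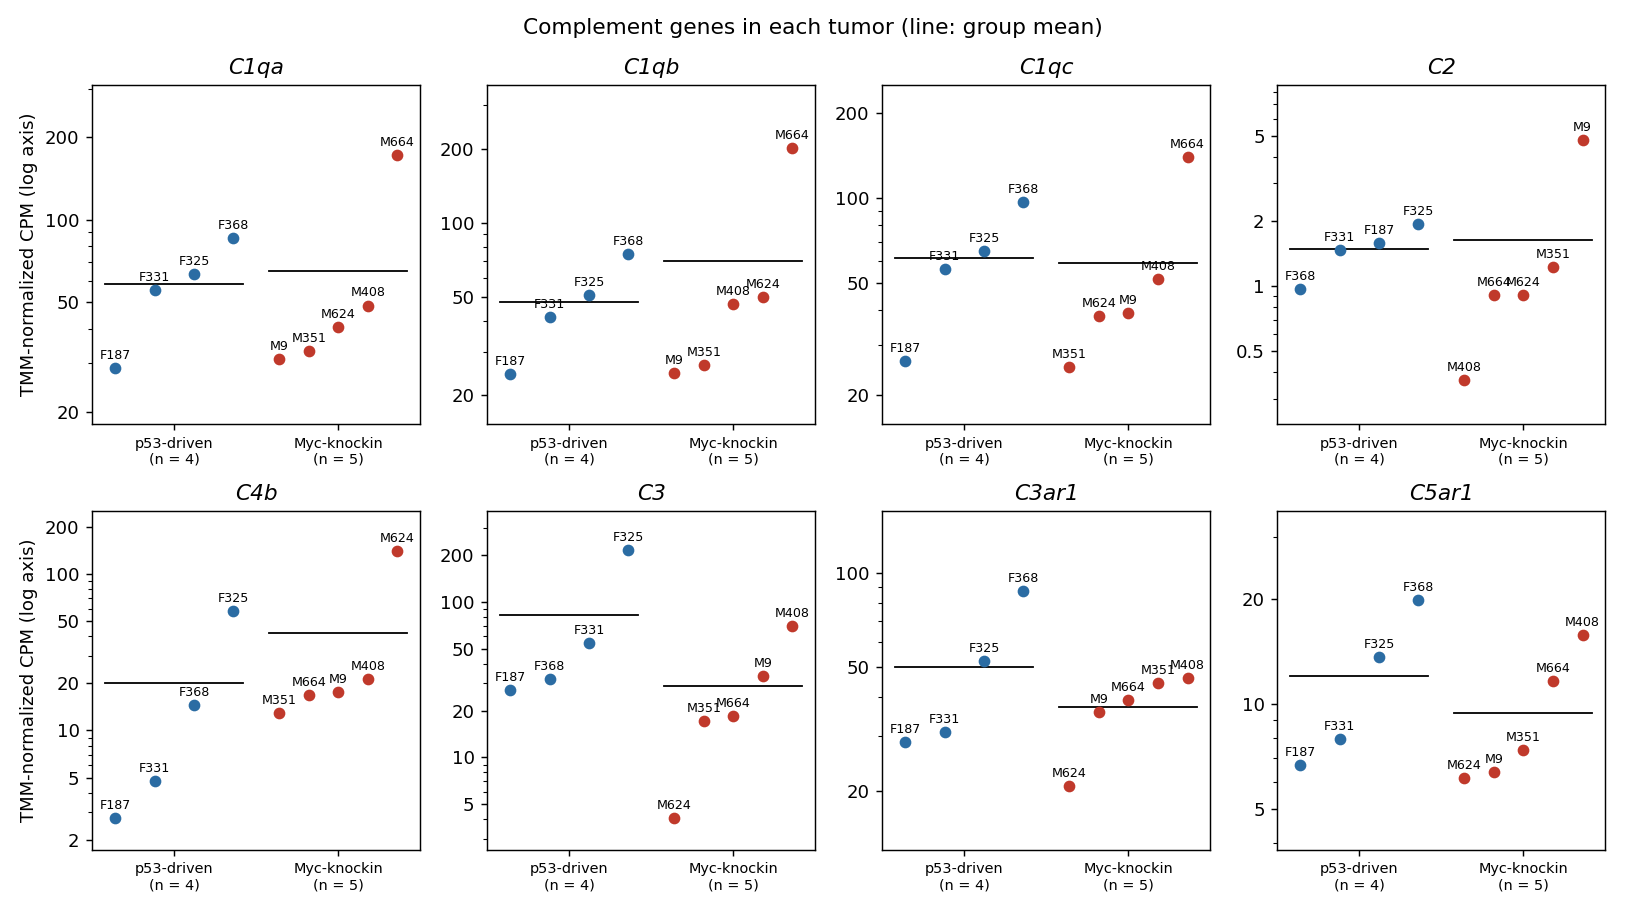
Each point is 1 tumor, in TMM-normalized CPM on a log axis of its own range for each gene, with p53-driven tumors in blue (n = 4), Myc-knockin tumors in red (n = 5) and the group mean as a line. The groups overlap in all 8 panels, M664 is the highest tumor for each C1q chain, F325 for C3 (214 CPM) and M624 for C4b (140.7 CPM).

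Among the recognition genes, C1qa, the A chain of C1q, was at 28.8, 63.6, 55.5 and 86.2 CPM in F187, F325, F331 and F368 of the p53-driven group. In M351, M408, M9, M624 and M664 of the Myc-knockin group it was at 33.2, 48.7, 31.1, 40.7 and 172.4 CPM. M664 was thus high on its own, and the other 4 Myc-knockin tumors lay inside the range of the p53-driven tumors. The group means were 65.2 ± 60.3 (SD, n = 5) and 58.5 ± 23.7 CPM (SD, n = 4), with a log2 fold change of 0.17 (95% interval -1.01 to 1.34, edgeR adjusted p = 0.875).

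C1qb, the B chain, was at 24.5, 51.0, 41.6 and 75.0 CPM in the p53-driven tumors and at 26.5, 46.9, 24.7, 50.0 and 201.9 CPM in the Myc-knockin tumors, in the same order of tumors. C1qc, the C chain, was at 26.5, 65.0, 56.0 and 97.1 CPM in the p53-driven and at 25.2, 51.7, 39.0, 38.1 and 140.3 CPM in the Myc-knockin tumors. Both genes repeated the pattern of C1qa, with M664 highest and F368 next. The log2 fold change was 0.56 for C1qb (95% interval -0.79 to 1.90, edgeR adjusted p = 0.593) and -0.05 for C1qc (95% interval -1.17 to 1.08, edgeR adjusted p = 0.969). Without M664 the log2 fold changes of C1qa and C1qb were -0.58 and -0.35, neither called, and that of C1qa was also below 0 without F187 (-0.07).

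Across the 9 tumors, log2 CPM of C1qa correlated with C1qb at a Pearson r of 0.97 and with C1qc at 0.96, and C1qb with C1qc at 0.92. These are descriptions over tumors that also share library depth and background. The summed CPM of the 3 chains was 514.5 in M664, which was 1.99 times the next highest tumor (258.3 in F368) and 3.73 times the median of the other 8. The lowest sum was 79.8 CPM in F187, so the chains spanned both ends of the range without sorting by genotype. The genes most like the C1q sum over the 9 tumors were Cxcl16, a chemokine of macrophages and dendritic cells (r = 0.94), Laptm4b (r = 0.94) and R3hdm4 (r = 0.93), of 9532 genes searched.

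Per kilobase of annotated exon, the chains were not equal. The division uses all annotated exon bases, 1040 for C1qa, 1088 for C1qb and 1931 for C1qc, so the rank of C1qc depends on that length. In CPM alone, the p53-driven mean was 61.15 for C1qc and 48.03 for C1qb. The Myc-knockin means were 58.86 and 69.98 CPM. C1qa led with a median of 46.8 CPM per kb over the 9 tumors, followed by C1qb at 43.1 and C1qc at 26.8. C1qa exceeded C1qb in 7 of the 9 tumors, and C1qb exceeded C1qc in all 9. The 2 exceptions were M624 and M664, in which C1qb made up 43.8% of the chains' CPM per kb against 31.2% to 36.9% in the other 7 tumors. The ratio of C1qa to C1qb was 0.852 and 0.893 in this pair and 1.09 to 1.40 in the others. The pair held 3381 and 11916 counts on the chains and the others 119 to 2309. The same pair had the low Rn7sk and the high red cell markers, and their part in this shift was not tested.

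**Figure D2:**
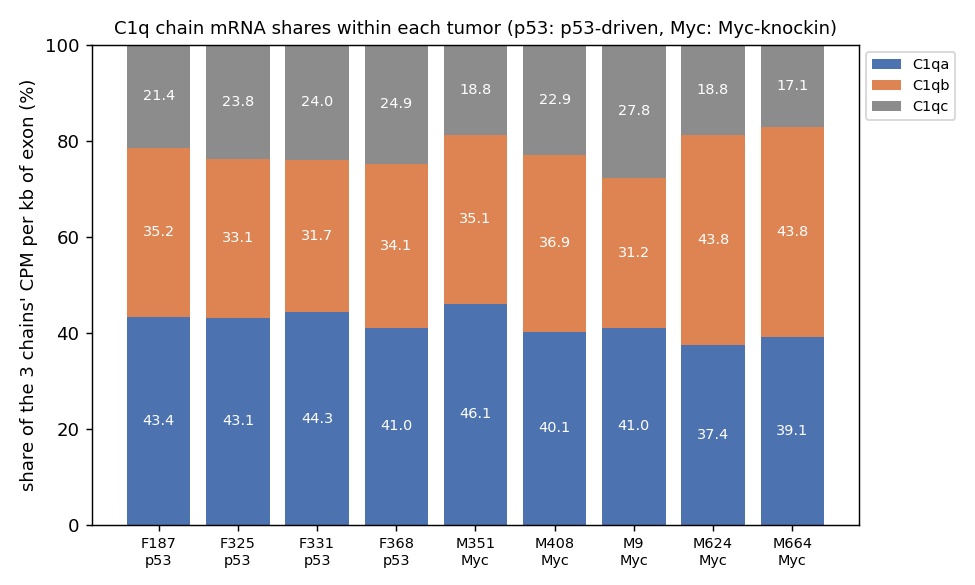
Bars stack the share of each C1q chain (%, of the 3 chains' CPM per kb of exon) in the 4 p53-driven and 5 Myc-knockin tumors. C1qb is the largest share in M624 (43.8%) and M664 (43.8%), and C1qa is the largest in the other 7 tumors.

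Of the components cleaved next, C4b encodes the mouse C4 protein that carries the classical pathway forward. It was at 2.77, 58.1, 4.76 and 14.6 CPM in F187, F325, F331 and F368 of the p53-driven group, and at 12.9, 21.4, 17.5, 140.7 and 16.8 CPM in M351, M408, M9, M624 and M664 of the Myc-knockin group. F325 and M624 were high, 1 tumor of each genotype, and 4 of the 5 Myc-knockin tumors lay within 12.9 to 21.4 CPM. The highest tumor was 50.9 times the lowest, although the lowest, F187, rests on 7 counts of which 4.04 are expected from genomic background. The values of M351 and M9 rest on 21 and 22 counts, of which 6.4 and 7.08 are expected from that background. The log2 fold change was 1.07 (standard error 0.95, edgeR adjusted p = 0.501), and it was -0.16 without M624 and 2.52 without F325, not called in either. Of the 76-base windows in C4b transcripts, 22.3% are also in C4a, its near copy, so some reads may be split or lost between them, and the count ratio of C4b to C4a ran from 0.412 in F187 to 217.3 in M624. The genes most like C4b were Morc2a (r = 0.98), Atp1b2 (r = 0.93) and Uspl1 (r = 0.92).

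C2, the protease that pairs with C4 in the C3-cleaving enzyme, was near the limit of detection. It was at 1.58, 1.95, 1.47 and 0.973 CPM in the p53-driven and at 1.23, 0.366, 4.78, 0.914 and 0.907 CPM in the Myc-knockin tumors, from 2 to 25 counts per tumor, and it did not pass the filter. The highest value, in M9, rests on 6 counts where 4.81 are expected from genomic background, and M351 had 2 counts where 4.35 are expected. The group means of 1.64 ± 1.78 (SD, n = 5) and 1.49 ± 0.401 CPM (SD, n = 4) did not differ detectably at this depth (two-sided exact permutation test, p = 0.659). In the annotation, 42.8% of the exon bases of C2 also belong to Gm20547, a gene on the same strand at 0 counts in every tumor, and 4.16% lie opposite Zbtb12. Reads over such bases may not have been counted, so the level of C2 is uncertain. Its most similar genes by correlation were Dusp22 (r = 0.95), Daglb (r = 0.94) and Gpr155 (r = 0.91).

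C3, the component on which all pathways meet, ranged widely. It was at 27.3, 214, 54.7 and 32.1 CPM in F187, F325, F331 and F368 of the p53-driven group, and at 17.2, 70.0, 33.5, 4.08 and 18.5 CPM in M351, M408, M9, M624 and M664 of the Myc-knockin group. F325 held the highest level and M624 the lowest, a 52.5-fold range, and M408 of the Myc-knockin group lay above 3 of the 4 p53-driven tumors. The values of F187, M351 and M9 rest on 69, 28 and 42 counts, of which 3.65, 5.78 and 6.39 are expected from genomic background. The means were 28.7 ± 25.3 (SD, n = 5) and 82.0 ± 88.8 CPM (SD, n = 4), with a log2 fold change of -1.53 (95% interval -3.23 to 0.18, edgeR adjusted p = 0.233). Without F325 the log2 fold change was -0.43 and without M408 it was -2.20, called in neither. Of 6 hepatocyte markers, listed because the liver makes much C3, Trf, which other tissues also express, alone passed the filter on low counts, and the other 5, Alb among them, had at most 13 counts in any tumor. The genes most like C3 were Slain2 (r = 0.94) and the muscle genes Cmya5 (r = 0.94) and Pygm (r = 0.93). The log2 CPM of C3 correlated with the skeletal muscle marker list at r = 0.80, the fibroblast list at 0.73 and the macrophage list at 0.69. The muscle list was not particular to C3, since C3ar1 and C5ar1 correlated with it at 0.71 and 0.70. Muscle markers summed to 3725 CPM in F325, the tumor with the highest C3.

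For the receptors, the highest tumor was 4.21 times the lowest for C3ar1 and 3.23 times for C5ar1. C3ar1, the receptor of C3a, was at 28.8, 52.4, 30.9 and 87.7 CPM in the p53-driven and at 44.3, 46.0, 35.9, 20.8 and 39.3 CPM in the Myc-knockin tumors. C5ar1, the receptor of C5a on neutrophils and macrophages, was at 6.72, 13.6, 7.96 and 19.8 CPM in the p53-driven and at 7.39, 15.8, 6.37, 6.13 and 11.6 CPM in the Myc-knockin tumors. F368 was the highest for both, M624 was the lowest for C3ar1, and the groups overlapped for both. For C5ar1, M9 and M351 rest on 8 and 12 counts, of which 3.19 and 2.89 are expected from genomic background, so the lowest tumor is uncertain. The log2 fold change was -0.43 for C3ar1 (95% interval -1.25 to 0.39, edgeR adjusted p = 0.492) and -0.34 for C5ar1 (95% interval -1.29 to 0.62, edgeR adjusted p = 0.656). Without F368 they were -0.05 and -0.02. The receptors correlated with each other at r = 0.85. The genes most like C3ar1 were the RNA sensor Tlr7 (r = 0.94), Camk1d (r = 0.93) and F13a1, a coagulation factor of macrophages (r = 0.92), and those most like C5ar1 were Tlr13 (r = 0.94), Epb41l1 (r = 0.90) and Ms4a6d (r = 0.88).

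In CPM per kb, the order of the 8 members by their median over the tumors was C1qa, C1qb, C1qc, C3ar1 (9.12), C3 (6.24), C5ar1 (3.10), C4b (2.95) and C2 (0.318). C1qc stood above C3ar1 and C4b above C2 in all 9 tumors. C3ar1 above C3, C3 above C5ar1 and C5ar1 above C4b each held in 6 of the 9, so these neighbors did not keep their order across tumors.

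Since C1q and the receptors are known from macrophages, the members were set beside 16 macrophage markers, none of which was at 0 in any tumor. Their summed CPM was 1134 to 1986 in the p53-driven and 471.7 to 1262 in the Myc-knockin tumors. Of the 16 markers, 3 were called lower and none higher in Myc-knockin tumors, where 5.27% of all tested genes were called in either direction. Csf1r, the receptor for the macrophage growth factor CSF1, was at 240.5, 257, 495.2 and 269.2 CPM in the p53-driven and at 42.5, 61.4, 47.0, 19.8 and 113.1 CPM in the Myc-knockin tumors, with no overlap (log2 fold change -2.47, standard error 0.47, edgeR adjusted p = 0.0243). Cd68, a lysosomal glycoprotein (-2.27, edgeR adjusted p = 0.0229), and the signaling adaptor Tyrobp (-2.13, edgeR adjusted p = 0.0392) fell as well. Over the list, 11 markers were lower and 5 higher, with a median log2 fold change of -0.53. Csf1r, Cd68 and Tyrobp are also expressed by osteoclasts, the bone-resorbing relatives of macrophages, and 6 of 8 osteoclast markers were called lower, with a median log2 fold change of -4.01. The osteoclast markers summed to 2716 to 14150 CPM in the p53-driven and 124.3 to 2570 CPM in the Myc-knockin tumors, and in M408 1 of them was at 0. Their part in the macrophage marker values was not tested. The C1q chains were also compared per unit of macrophage marker RNA.

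With each library scaled to the geometric mean of the macrophage markers in place of TMM, the log2 fold changes of the C1q chains were 0.80 for C1qa (edgeR adjusted p = 0.241), 1.19 for C1qb (edgeR adjusted p = 0.137) and 0.64 for C1qc (edgeR adjusted p = 0.334). C4b was at 2.57 (edgeR adjusted p = 0.109), C3 at -0.93 (edgeR adjusted p = 0.326), C3ar1 at 0.40 (edgeR adjusted p = 0.530) and C5ar1 at 0.43 (edgeR adjusted p = 0.581). None of the 7 was called, beside 8.58% of all genes, and 2 (C1qb and C4b) had an unadjusted p under 0.05. This scaling moved the median of all tested genes to 1.01, so all members but C1qb and C4b lay below that median.

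The mean log2 CPM of the C1q chains minus that of the markers was -0.32, 0.28, 0.04 and 0.54 in F187, F325, F331 and F368 of the p53-driven group. It was 0.21, 0.32 and 0.43 in M351, M408 and M9, but 1.56 in M624 and 1.81 in M664. The tumors with high C1q relative to macrophage markers were the pair with low Rn7sk and high red cell markers, and without that pair the scaled log2 fold changes were 0.11 for C1qa, 0.17 for C1qb and 0.09 for C1qc (edgeR adjusted p = 0.792, 0.692 and 0.851). Over all 9 tumors, the difference in log2 CPM minus the markers was 0.68 for C1qa, 0.94 for C1qb and 0.58 for C1qc (two-sided exact permutation tests, p = 0.167, 0.143 and 0.175). Before this scaling, leaving out the pair gave log2 fold changes of -0.56 for C1qa, -0.46 for C1qb, -0.58 for C1qc, -0.93 for C3, -0.16 for C4b, -0.18 for C3ar1 and -0.16 for C5ar1, none of them called, while Csf1r stayed called at -2.58 (edgeR adjusted p = 0.0241). Leaving out the pair left only satellite-rich libraries, M351, M408 and M9, in the Myc-knockin group, whereas F187 alone was satellite-rich in the p53-driven group. These comparisons therefore do not separate genotype from library type.

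**Figure D3:**
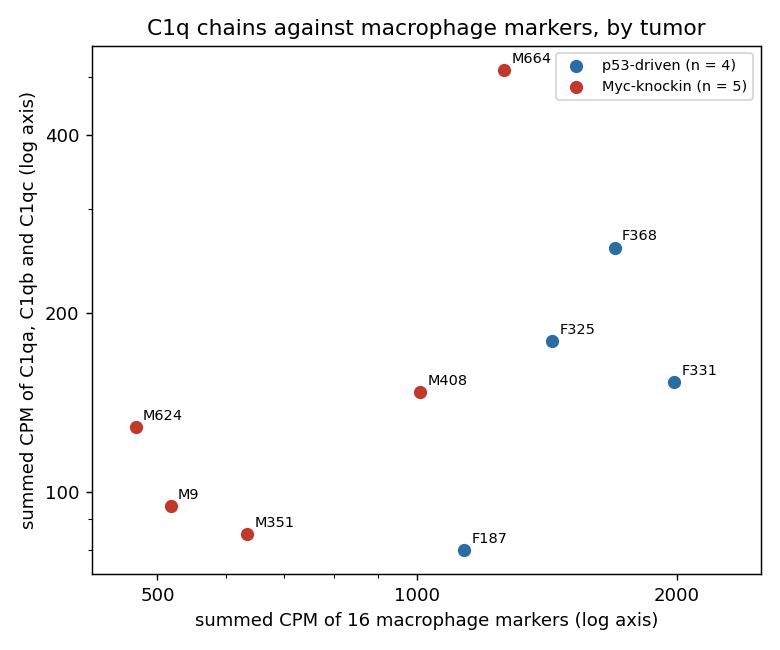
Each point is 1 tumor, with the summed CPM of 16 macrophage markers on the horizontal and the summed CPM of C1qa, C1qb and C1qc on the vertical log axis, p53-driven tumors in blue (n = 4) and Myc-knockin tumors in red (n = 5). M664 combines the highest C1q sum (514.5 CPM) with 1262 CPM of markers, and M624 has the lowest marker sum (471.7 CPM) with a C1q sum of 128.8 CPM.

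The other genes of the cascade were read from lists grouped by role, 54 genes with the members included, of which 31 were tested. None was called by edgeR in either direction, where 5.27% of all tested genes were called. An unadjusted p under 0.05 was found for 6, 5 of them lower and 1 higher in Myc-knockin tumors. The share of all genes under that p was not counted, so the 6 cannot be read as a shift of the cascade. Leaving out the members, 10 of 24 tested genes were higher and 14 lower, with a median log2 fold change of -0.77. By role, with the members included, the median was -0.40 for the C1 complex (6 tested), -0.58 for the lectin pathway (2), 1.00 for C3, C4a and C4b (3), -1.58 for the alternative pathway (2), -0.43 for the receptors (7) and -0.56 for the regulators (8). The 3 tested terminal components, Hc, C6 and C7, had a median of 1.95 but at most 16, 44 and 19 counts in any tumor, and their highest values were those of M9, with 16, 17 and 15 counts of which 7.78, 4.42 and 3.32 are expected from genomic background.

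Of the 31 tested genes, 1 had groups that did not overlap, where 13.0% of all tested genes did, and it is described because it met the rule for naming genes. Cd93, a receptor of endothelial and myeloid cells once described as a C1q receptor, was at 212.5, 161, 213.3 and 206.4 CPM in the p53-driven and at 67.1, 112.3, 99.6, 31.9 and 127.2 CPM in the Myc-knockin tumors. The lowest p53-driven tumor stood above the highest Myc-knockin tumor. The log2 fold change of Cd93 was -1.18 (standard error 0.37, edgeR adjusted p = 0.0791), and DESeq2 (adjusted p = 0.0237) and limma-voom (adjusted p = 0.0120) called it. Endothelial markers summed to 336.6 to 475.2 CPM in the p53-driven and 84.97 to 456 CPM in the Myc-knockin tumors, lowest in M624 where Cd93 was lowest too, and 5 of the 6 had log2 fold changes below 0, none called. None of the 6 was at 0 in any tumor, and their part in the level of Cd93 was not tested. The genes with the highest mean CPM in 4 of the other lists did not pass the test, with log2 fold changes of -1.38 for Serping1, which encodes the C1 inhibitor that shuts off C1r and C1s (edgeR adjusted p = 0.150), -0.91 for Cfp, which encodes properdin, the stabilizer of the alternative pathway enzyme (edgeR adjusted p = 0.293), 0.28 for the lectin pathway protease Masp1 (edgeR adjusted p = 0.810) and 0.04 for C6, a part of the membrane attack complex (edgeR adjusted p = 0.989). Masp1 held 21 and 19 counts in M351 and M9, where 11 and 12.2 are expected from genomic background.

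**Figure D4:**
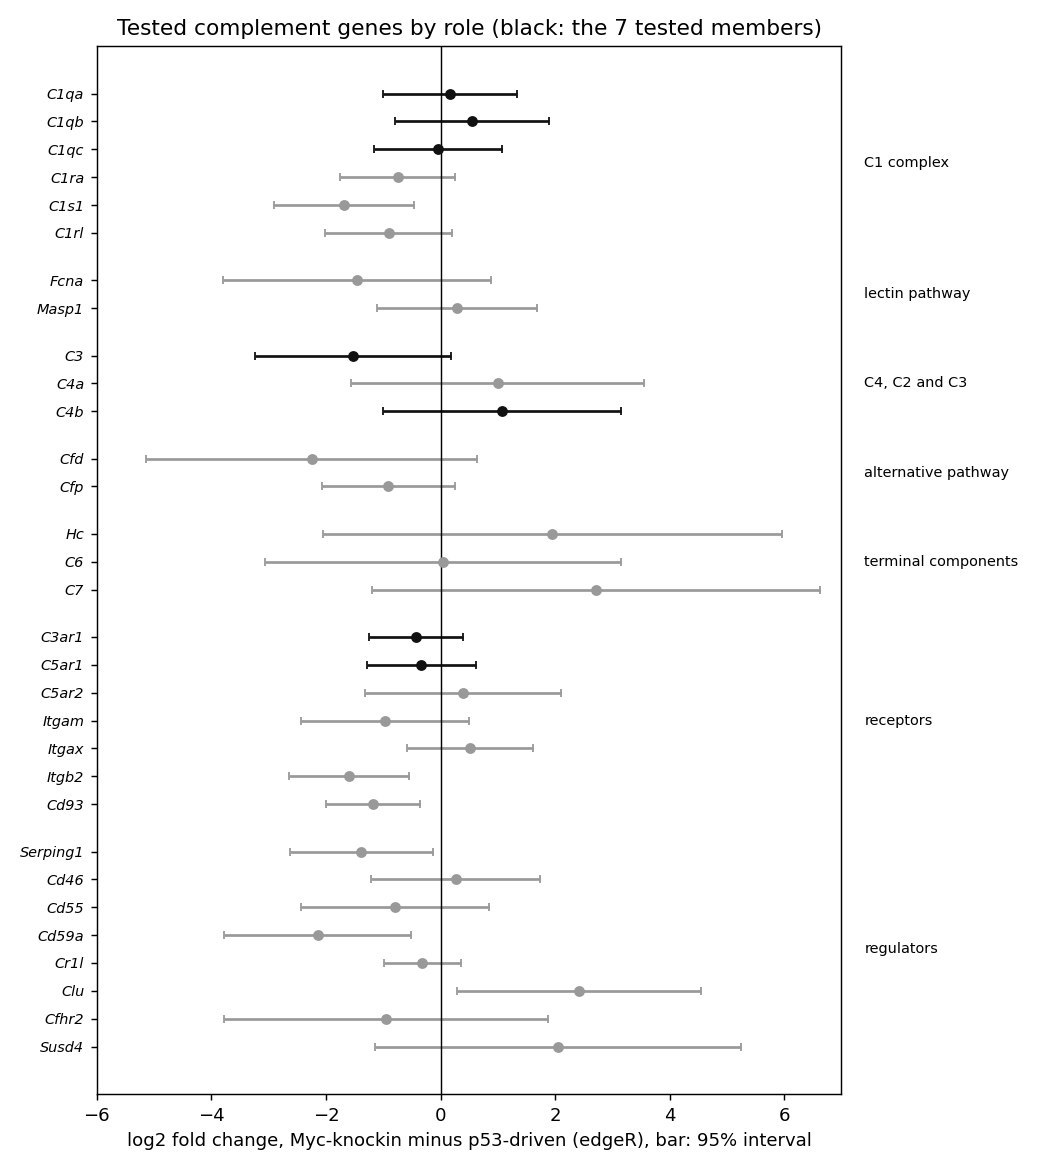
Points are edgeR log2 fold changes (Myc-knockin minus p53-driven, 5 against 4 tumors) of the 31 tested complement genes by role, with 95% intervals as bars and the 7 tested members in black. The intervals of all 7 members include 0. Those of Cd93 (-1.18), Itgb2 (-1.60), C1s1 (-1.68), Cd59a (-2.15) and Serping1 (-1.38) lie below 0, and that of Clu (2.41) lies above 0. None of these genes was called by edgeR.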

How the data were processed

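Whole-tumor RNA from 4 p53-driven and 5 Myc-knockin tumors was made into oligo-dT-enriched, stranded libraries. The authors trimmed the reads with Trim Galore, mapped them with STAR to mm10 and deposited raw counts per gene from featureCounts. The strand setting, the treatment of multimapping reads and the annotation are not given in the sources used here. No label names the table's columns. Group names of F187, F325, F331, F368, M408 and M624 came from the study's supporting data, and M351, M9 and M664 were assigned from the letter M, and no column was tied to a single numbered sample.

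Counts were tested in R 4.3.3 with edgeR 4.0.16 (TMM, filterByExpr with a minimum count of 10, glmQLFit and glmQLFTest), with Benjamini-Hochberg adjustment over 15365 genes and a call required an adjusted p below 0.05 with more than a 1.5-fold change. DESeq2 1.42.0 and limma 3.58.1 (voom with quality weights) were alternatives, and the code was tested on simulated counts. A prior count of 2 was used for log2 CPM. Single values were compared by two-sided exact permutation tests over 126 arrangements, whose smallest p is 0.00794. Intervals come from the edgeR fit and include its estimate of the spread between these tumors. Floors cover counting only. Exon lengths and positions came from GENCODE for mm10. Genomic background was estimated per kilobase of exon from 1781 chemosensory receptor genes.

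Named were the members, other complement genes that were called or whose groups did not overlap, and the gene with the highest mean CPM of each list. Also named were the 3 genes (mean of at least 10 CPM) most correlated with the C1q sum and with C2, C3, C4b, C3ar1 and C5ar1. Genes outside this rule, and the 11 satellite genes, were chosen after their values were seen. The members and gene lists were chosen with earlier results of these data known. Proteome data were not analysed here, and 1 gene of the complement lists is not reported here.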

Additional observations from a re-analysis of the deposited data

Results flagged for a closer look

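On CPM, 6 of the 16 groups tested held a tumor farther from its nearest neighbor than Dixon's 95% limit allows, and on log2 CPM 2 did. Chance flags about 1 in 20 where values are normally distributed, which was not tested here, and the 16 groups are not independent. M664 stood high among the Myc-knockin tumors for C1qa (172.4 CPM, on both scales), C1qb (201.9 CPM, on CPM) and C1qc (140.3 CPM, on CPM), and these chains varied together. In the same group, C4b stood high in M624 (140.7 CPM, on both scales) and C2 in M9 (4.78 CPM, on CPM, from 6 counts of which 4.81 are expected from genomic background). Among the p53-driven tumors, C3 stood high in F325 (214 CPM, on CPM). M624 and M664 are the libraries with low Rn7sk and high red cell markers, and the part of these in their values was not tested.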

How the results depend on the processing

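No member was called under any alternative in which it could be tested. DESeq2 gave no adjusted p for C4b, and C4b and C5ar1 did not have 10 counts in every tumor, which left 5 members in that alternative. The sign of some members changed. C1qa was at -0.38 on the log2 scale with limma-voom and -0.56 without M624 and M664, and at -0.58 to 0.40 with each tumor left out in turn. C1qb was at -0.28 and -0.46 under the same settings, and at -0.35 to 0.84. C1qc was at 0.014 with upper-quartile normalization, 0.014 when scaled by library size, 0.063 with at least 10 counts in every tumor, 0.033 with genomic background subtracted and 0.33 without the 4 libraries with satellite reads, and at -0.64 to 0.25. C4b was at -0.16 without M624 and M664, and at -0.16 to 2.52. C3 relative to macrophage markers was at -1.36 to 0.13. C3, C3ar1 and C5ar1 stayed below 0 in all alternatives of the TMM comparison. The cause of these changes was not tested.

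None of the 31 tested complement genes was called in the comparison as reported. With at least 10 counts in every tumor, 1 of 15 was called (Itgb2), beside 1316 of 9283 genes. DESeq2 called 4 of 31 (C1s1, Cd59a, Cd93 and Itgb2), beside 2646 of 15365. The limma-voom fit called 1 of 31 (Cd93), beside 1663 of 15365. Without the 4 libraries with satellite reads, 1 of 35 was called (Itgam), beside 4595 of 16495. That alternative set only M624 and M664, the libraries with low Rn7sk, against F325, F331 and F368. At an adjusted p under 0.1, 3 of 31 were called (C1s1, Cd93 and Itgb2), beside 2248 of 15365. With each tumor left out, 0 to 1 was called. These were C1s1 without F187 (beside 335 of 16494), Itgam without M408 (847 of 15472) and Itgb2 without M664 (698 of 14334). Over all genes, 809 were called in the comparison as reported, 43.0% of them higher, against 8, 6 and 5 without F325, F331 or F368, 1588 without M9, 136 with library size alone, 2646 with DESeq2 (58.0% higher), 971 with upper-quartile normalization (64.5% higher) and 4595 without the satellite libraries. The 2 lowest totals without satellite reads, 672104 (M9) and 873137 (M351), limit what can be seen of C2 and C4b. No paired analysis was possible because the columns carry no replicate numbers.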

Other observations

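Clu, which encodes clusterin, an inhibitor of the membrane attack complex, was singled out after its values were seen. It was at 178.5 CPM in M624 and between 8.64 and 13.5 CPM in the remaining Myc-knockin tumors, beside 3.56 to 15.4 CPM in the p53-driven tumors (log2 fold change 2.41, edgeR adjusted p = 0.141). M624 was thus the highest tumor for both C4b and Clu, and the lowest for C3 and C3ar1.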
